A study of Mus musculus with 6 samples.

Results

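Heat shock proteins are molecular chaperones that bind unfolded or newly made proteins and release them in a cycle driven by ATP. This account follows 10 genes of the cytosolic and mitochondrial chaperone systems in mouse embryonic stem cells with lowered Npm1, chosen by symbol among 52535 rows of the authors' deposited table. They are Hsf1, the transcription factor of the heat shock response, the Hsp70 genes Hspa1a, Hspa1b and Hspa8, the Hsp110 gene Hsph1, the J-domain gene Dnajb1, the Hsp90 genes Hsp90aa1 and Hsp90ab1, and the mitochondrial chaperonin pair Hspd1 and Hspe1. All 10 symbols were found once, all 10 had reads, and 9 passed the filter on low values.

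The cells were E14, an established mouse embryonic stem cell line, in 2 groups. One was labelled NPM1 knockdown and had been transfected with an siRNA against Npm1, and the other was labelled WT and had received a control siRNA. Each group had 3 samples, collected 3 days after transfection. Both groups were grown in N2B27 medium with LIF and 2i, with no heat or other proteotoxic treatment in the labels. An siRNA lowers a transcript without removing the gene, and the labels do not give its sequence. They also do not say whether samples were separate cultures, and the p-values therefore reflect only how far these samples spread, which may be technical.

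Polyadenylated RNA was sequenced from 1 end over 100 bases. The authors' deposited table gives, per gene, a mean normalized count over the 6 libraries, a log2 fold change and an unadjusted p, and the means sum to 27631017. Which group is on top of the ratio is not in the header. The ratio was taken to be Npm1 siRNA over control siRNA, because Npm1, which encodes the nucleolar protein nucleophosmin, has a log2 fold change of -1.14 in the authors' deposited table, and each direction below rests on that reading. On it, Npm1 stood at about 84458 in Npm1 siRNA cells and about 186392 in control siRNA cells, derived from the authors' deposited table, or 45.3% of control (Benjamini-Hochberg adjusted p = 5.35e-49). A gene was called at a Benjamini-Hochberg adjusted p under 0.05 over the 14284 genes whose mean reached 10, and 95% intervals come from the standard error implied by each fold change and p. Of the 9 embryonic stem cell markers examined, all were tested, with means from 1312.94 for Utf1 to 23792.75 for Tfcp2l1 in the authors' deposited table. Of these, 1 was called: Utf1, a chromatin protein of pluripotent cells, rose with a log2 fold change of 0.48 in the authors' deposited table (Benjamini-Hochberg adjusted p = 0.00332). With the trend on length and GC content subtracted, Utf1 was no longer called (log2 fold change 0.32, adjusted p = 0.119, over all alternatives 0.00263 to 1.0). Of 10 fibroblast markers, which a feeder layer would bring, Dcn, Postn and S100a4 were at 0, and the reads of the other 7 summed to 61, 40 and 29 in the Npm1 siRNA libraries, against 93, 64 and 50 in the control siRNA libraries. The 3 that could be tested, among them Col1a1 and Twist1, were not called, with a median log2 fold change of -0.79, and their part in the results was not tested. In bulk RNA, fewer cells of a type and less RNA per cell cannot be told apart.

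In unstressed cells Hsf1 is held inactive, in part by Hsp70 and Hsp90. When misfolded proteins occupy these chaperones, Hsf1 forms trimers that bind heat shock elements, which are alternating GAA and TTC units spaced by a pair of bases, and raises the inducible chaperones. Embryonic stem cells are known for high constitutive levels of Hsp90 and Hsp70 proteins, which fold signalling kinases and other clients.

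The heat shock elements near the start sites were read from the RefSeq promoter table (GRCm38.p6), which holds 250 bases before and 50 after a start site. It matched 6 of the 10 genes, and not Hspa8, Hsp90aa1, Hsp90ab1 or Hsf1. The elements are shown because Hsf1 binds such elements, so that the values below can be read beside them. Capitals mark the run of units, in windows of 30 bases:

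Hspe1 (chr1:55088053-55088082, plus strand): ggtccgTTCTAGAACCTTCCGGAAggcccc

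Hspd1 (same bases, minus strand): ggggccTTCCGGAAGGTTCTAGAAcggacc

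Hsph1 (chr5:149636287-149636316, minus strand): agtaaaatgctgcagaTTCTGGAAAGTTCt

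Hspa1a (chr17:34972242-34972271, minus strand): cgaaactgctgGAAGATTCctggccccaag

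Hspa1b (chr17:34959324-34959353, minus strand): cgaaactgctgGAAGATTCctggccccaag

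A run of 2 units (GAANNTTC or TTCNNGAA, each its own reverse complement) was in a window of 5 of the 6 genes, and in 17% of the 27025 genes of the table. A run of 3 units (GAANNTTCNNGAA or TTCNNGAANNTTC, which are reverse complements and each contain the shorter motif) was in windows of Hsph1, Hspd1 and Hspe1, and in 0.662% of all genes. A run of 4 units (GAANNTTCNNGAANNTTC or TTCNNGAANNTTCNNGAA) was in windows of 8 genes in all, which is 0.0296%, and Hspd1 and Hspe1 are 2 of those 8. Hspd1 and Hspe1 lie head to head on chromosome 1, so this is 1 element read from both strands. It starts 89 bases before the Hspe1 start site and, in GENCODE, lies in an exon of the 5′ untranslated region of Hspd1. The Hsph1 run of 3 units starts 37 bases after the upstream one of its start sites, in the 5′ untranslated region. A separate Hsph1 run of 2 units, not printed above, starts 33 bases before that start site. The 300-base windows of Hspa1a and Hspa1b share 296 of their bases, and each holds the same 2-unit run, 104 bases before the start site. Dnajb1 had no run of 2 units in either of its windows, which says only that these letters are not there.

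Among the 10 genes Dnajb1 rose after Npm1 siRNA, none fell, and the other 8 tested genes did not pass, by the authors' p with Benjamini-Hochberg adjustment (at an unadjusted p under 0.05 there was also 1, Dnajb1, beside 16.3% of all tested genes). That is 1 of 9, where 4.3% of all tested genes were called, 2.23% higher and 2.07% lower. Among the 4813 tested genes with a mean of at least 1000, 7.67% were called. The median log2 fold change of the 9 was -0.0024, beside 0.0019 over all 14284 tested genes. Of the 9 values 5 were negative, beside 7083 of the 14284. For 5 of the 9 the whole 95% interval lay within a change of 1.2-fold in either direction. Those were Hspa8, Hsp90aa1, Hsp90ab1, Hsph1 and Hspd1.

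**Figure D1:**
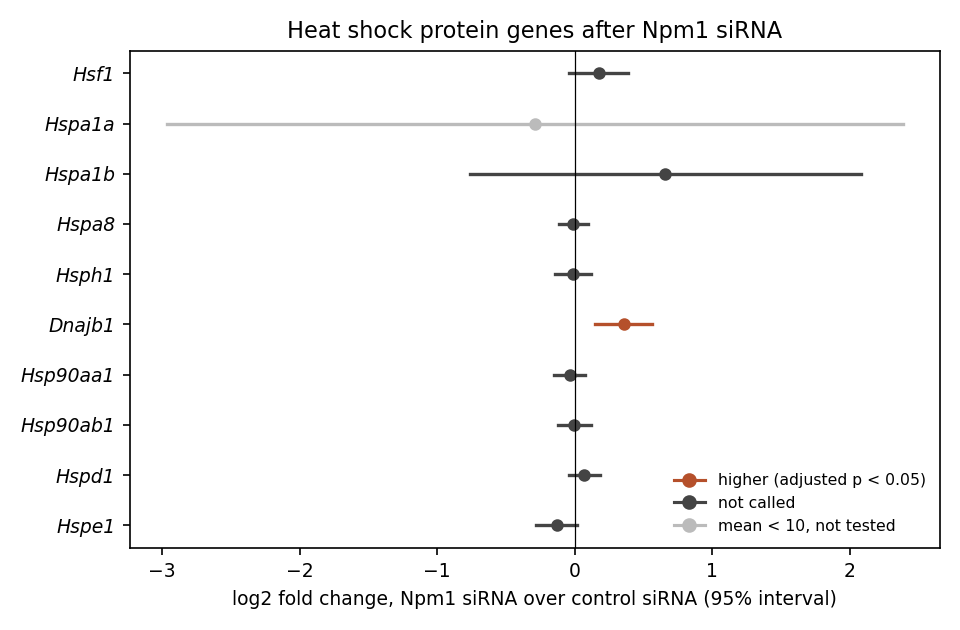
Log2 fold change of the 10 genes, Npm1 siRNA over control siRNA, with 95% intervals implied by the authors' p, ordered by role. Dnajb1 is the gene whose interval lies above 0 and which passed the test, and the intervals of Hspa1a and Hspa1b are the widest.

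Hsf1 (chromosome 15, 76477422 to 76501913, GRCm38) had a mean normalized count of 910.53 in the authors' deposited table. The level was about 965 in Npm1 siRNA cells and about 856 in control siRNA cells, both worked out from its pooled mean and log2 ratio in the authors' deposited table. The log2 fold change was 0.17 in the authors' deposited table (95% interval -0.04 to 0.39, Benjamini-Hochberg adjusted p = 0.454), so a difference was not shown, and the interval reaches from 97.3% to 130.9% of control. Hsf1 is regulated mainly as a protein, and these data measure its transcript.

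The stress-inducible Hsp70 genes Hspa1a and Hspa1b, near-identical neighbours on chromosome 17 and classic targets of Hsf1, had very few counted reads. Their pooled means were 5.11 and 16.37 in the authors' deposited table, beside 61355.57 for the constitutive Hspa8. At such low means the pooled value can be resolved into whole reads per library, because 1 read adds a different fixed amount in each library. Hspa1a (34969190 to 34972156) had 2, 7 and 5 reads in the Npm1 siRNA libraries, against 13, 0 and 4 reads in the control siRNA libraries. The control siRNA libraries span the whole range of the Npm1 siRNA libraries and beyond it. Hspa1b (34956436 to 34959238) had 13, 14 and 33 reads in the Npm1 siRNA libraries, against 12, 18 and 8 reads in the control siRNA libraries. One Npm1 siRNA library held the highest value, and the other 2 fell inside the range of the control siRNA libraries.

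**Figure D2:**
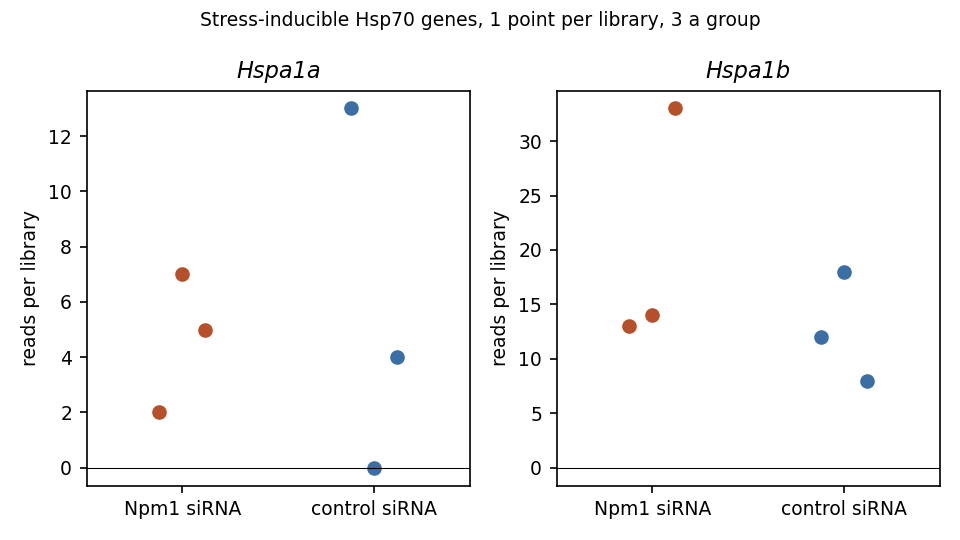
Reads of Hspa1a and Hspa1b in each library, 3 per group, resolved from the pooled means in the authors' deposited table. The groups overlap for both genes, and the highest value for Hspa1b is 33 reads in an Npm1 siRNA library.

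Hspa1b had a log2 fold change of 0.66 in the authors' deposited table (95% interval -0.76 to 2.08, Benjamini-Hochberg adjusted p = 0.744). Hspa1a was under the filter on low means and was not tested, with an unadjusted p of 0.831 in the authors' deposited table. A difference in either gene was not detectable at this depth. Reads of these genes are also hard to place: 56.5% of the 100-base windows of the Hspa1a transcript, and 49.9% of those of Hspa1b, occur in an annotated transcript of another gene, mostly the other member of the pair. Gm20481, annotated on the opposite strand, overlaps 2225 bases of Hspa1a. Whether strand was used in counting, and how reads shared by several transcripts were treated, is not given in the sources used here. The split between these rows and the levels themselves are therefore uncertain.

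Hspa8 encodes Hsc70, the constitutive cytosolic Hsp70, which also uncoats clathrin vesicles. Its mean normalized count was 61355.57 in the authors' deposited table, rank 24 of all genes (chromosome 9, 40800984 to 40810087). The level was about 61128 in Npm1 siRNA cells and about 61584 in control siRNA cells, derived from the authors' deposited table. The log2 fold change was -0.01 (standard error 0.05, 95% interval -0.12 to 0.10, Benjamini-Hochberg adjusted p = 0.964), by the authors' deposited table. Its interval places Hspa8 between 92.1% and 106.9% of control. Of its 100-base windows, 32.1% occur in another annotated transcript, most of them in Gm26825. That row had a mean of 11.54 in the authors' deposited table.

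Hsph1, an Hsp110 that recharges Hsp70 with ATP and serves in disaggregation, had a mean of 5084.93 in the authors' deposited table (chromosome 5, 149614287 to 149636376). It stood at about 5064 in Npm1 siRNA cells and about 5106 in control siRNA cells, derived from the authors' deposited table. Its log2 fold change was -0.01 (95% interval -0.14 to 0.12, Benjamini-Hochberg adjusted p = 0.967) in the authors' deposited table. Hsph1 carries the 3-unit element printed above, and no other annotated transcript shares a 100-base window with it.

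Dnajb1 encodes Hsp40, the J-domain partner that delivers substrates to Hsp70 and triggers its ATPase. It is also the Hsp70 partner that returns Hsf1 to its inactive form. It was the 1 gene called among the 9 tested. Its level was about 1068 in Npm1 siRNA cells and about 836 in control siRNA cells, derived from the authors' deposited table, where its pooled mean was 951.93. It rose 1.28-fold, going by the authors' deposited table (log2 fold change 0.35, standard error 0.11, 95% interval 0.15 to 0.56, Benjamini-Hochberg adjusted p = 0.0269). The lower end of the interval is 110.6% of control. The call was lost under the Benjamini-Yekutieli adjustment (adjusted p = 0.273) and in a test against a change of 1.2-fold, and its adjusted p over all alternatives ran from 0.022 to 1.0. No annotated transcript of another gene shares a 100-base window with Dnajb1.

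Dnajb1 lies on chromosome 8 from 83608193 to 83612653. The 150 bases before its upstream RefSeq start site (chr8:83608025-83608174, plus strand, GRCm38.p6) are shown because it is the member that passed the test, for comparison with the elements above. Capitals mark each GAA or TTC:

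Dnajb1: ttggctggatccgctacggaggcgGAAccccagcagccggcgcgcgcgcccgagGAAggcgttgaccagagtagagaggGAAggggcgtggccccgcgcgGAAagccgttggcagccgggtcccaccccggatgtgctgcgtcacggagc

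The stretch holds 4 GAA units and no TTC, and 72% of its bases are G or C. The median over 32851 windows of that length is 5 GAA or TTC units, and 97.4% of windows hold at least 1. No GENCODE gene overlaps the stretch. Only exact units were searched, so the letters do not tell whether Hsf1 acts on Dnajb1, which was not tested.

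The Hsp90 genes were the most abundant of the set. Hsp90ab1, the constitutive cytosolic Hsp90, had a mean of 353161.39 in the authors' deposited table, rank 4 of all genes and 1.28% of the summed means (chromosome 17, 45567775 to 45573271). Its level was about 352870 in Npm1 siRNA cells and about 353453 in control siRNA cells, derived from the authors' deposited table. The log2 fold change was -0.0024 in the authors' deposited table (95% interval -0.12 to 0.12, Benjamini-Hochberg adjusted p = 0.995), which places it between 91.9% and 108.5% of control. Hsp90aa1, the more stress-inducible form, had a mean of 103534.86 in the authors' deposited table, rank 13 (chromosome 12, 110690605 to 110702728). It stood at about 102188 in Npm1 siRNA cells and about 104882 in control siRNA cells, derived from the authors' deposited table. Its log2 fold change was -0.04 (95% interval -0.15 to 0.08, Benjamini-Hochberg adjusted p = 0.841) in the authors' deposited table. Of the 3182 Hsp90aa1 windows of 100 bases, 1513 occur in another annotated transcript, most of them in Gm12346, whose own row had a mean of 38.06 in the authors' deposited table. Hsp90ab1 had no such window.

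Hspd1 and Hspe1 encode Hsp60 and Hsp10, the barrel and the lid of the mitochondrial chaperonin, and are transcribed away from each other from a shared promoter region. Their point estimates had opposite signs, and neither passed the test. Hspd1 had a mean of 34592.10 in the authors' deposited table (chromosome 1, 55077835 to 55088243), with about 35431 in Npm1 siRNA cells and about 33754 in control siRNA cells, derived from that pooled value. Its log2 fold change was 0.07 (95% interval -0.04 to 0.18, Benjamini-Hochberg adjusted p = 0.623) in the authors' deposited table. Hspe1 had a mean of 5293.33 in the authors' deposited table (55088132 to 55091307), with about 5050 in Npm1 siRNA cells and about 5536 in control siRNA cells, derived from that pooled value. Its log2 fold change was -0.13 (95% interval -0.28 to 0.01, Benjamini-Hochberg adjusted p = 0.383), by the authors' deposited table. The 2 intervals overlap, and the difference between the genes was not tested. In GENCODE their 5′ ends overlap by 112 bases on opposite strands, and 25.8% of the Hspd1 windows of 100 bases occur in Hspd1-ps3, a pseudogene with a mean of 14.17 in the authors' deposited table.

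Set per length, the pooled levels of the 9 tested genes spanned a 23997-fold range, as mean normalized count per kilobase of the longest annotated transcript. Hsp90ab1 was at 140143.4 per kilobase, Hsp90aa1 at 31555.9, Hspa8 at 19428.6 and Hspd1 at 14276.6. Hspe1 followed at 5491.0, Hsph1 at 1067 and Dnajb1 at 317.7, then Hsf1 at 290.6 and Hspa1b at 5.84. The untested Hspa1a was at 1.72. The lengths include stretches shared with other transcripts, and how reads from these were counted is not given. The levels of Hspa1a, Hspa1b, Hspa8, Hsp90aa1 and Hspd1 are therefore less certain. The order was the same with the union of exons as the length. Dnajb1 and Hsf1 are close neighbours by longest transcript, but by exon union they were at 297.1 and 128.3 per kilobase. With no values per library their spread over samples cannot be given. Together the 10 genes made up 2.04% of the summed means, of which Hsp90ab1 and Hsp90aa1 gave 80.8%.

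**Figure D3:**
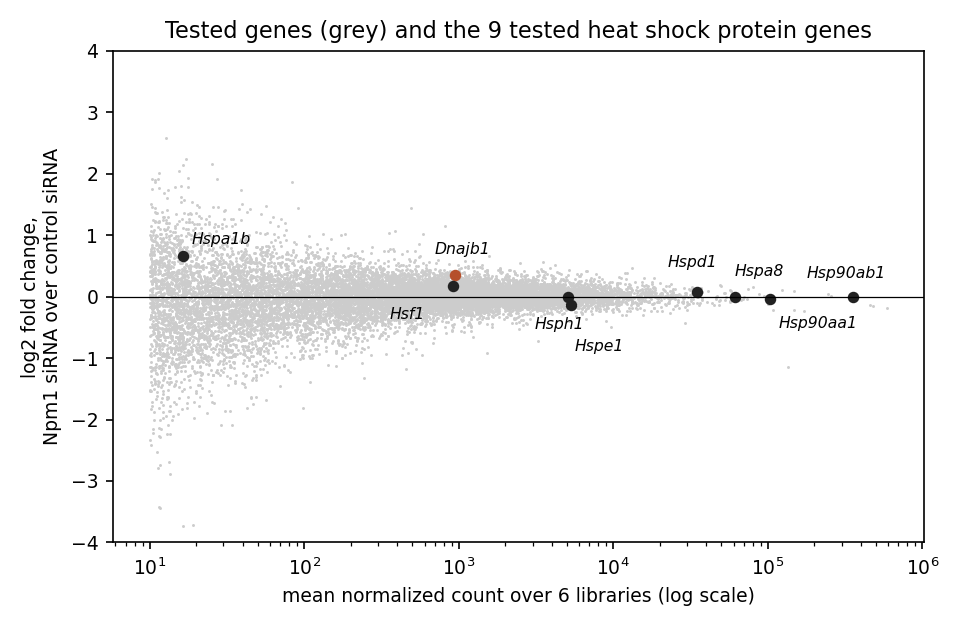
Log2 fold change (Npm1 siRNA over control siRNA) against the pooled mean normalized count on a log axis, for all 14284 tested genes in grey and the 9 tested heat shock genes as labelled points. Of the labelled genes Dnajb1, in colour, was called, and the abundant genes to the right sit close to 0, while Hspa1b lies where the spread of all genes is wide.

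The wider chaperone network was read from 8 further lists, of 90 genes without the 10 above. Of these, 80 were tested, 1 rose, 3 fell and 76 did not pass, so that 5% were called beside 4.3% of all tested genes. Abundant genes were called more often, at 7.67% of the 4813 tested genes with a mean of at least 1000. The median log2 fold change of the 80 was -0.05, beside 0.0019 over all tested genes, with 52 negative and 28 positive values. Over all tested genes 7083 values were negative and 7201 positive. The genes that changed were Bag3, St13, Stip1 and Dnajc15.

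Among 9 exchange factors and adaptors of Hsp70, all tested, 1 rose and 1 fell, with a median log2 fold change of -0.04. Bag3, an exchange factor that is itself induced through Hsf1 and steers clients to autophagy, rose 1.2-fold, going by the authors' deposited table (log2 fold change 0.26, 95% interval 0.12 to 0.40, Benjamini-Hochberg adjusted p = 0.0114). Its level was about 3132 in Npm1 siRNA cells and about 2610 in control siRNA cells, derived from the authors' deposited table. Another annotated gene on the same strand, 2610306O10Rik, overlaps Bag3 by 612 bases. St13, or Hip, which steadies the substrate-bound state of Hsp70, fell to 80.9% of control, going by the authors' deposited table (log2 fold change -0.31, standard error 0.05, 95% interval -0.41 to -0.20, Benjamini-Hochberg adjusted p = 2.34e-06). Its level was about 13910 in Npm1 siRNA cells and about 17203 in control siRNA cells, derived from the authors' deposited table. Bag2, a co-chaperone that inhibits the ligase Stub1, had the lowest value of the list, a log2 fold change of -0.60 in the authors' deposited table (95% interval -1.25 to 0.04).

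Of 19 Hsp90 co-chaperones, all tested, 1 fell, and the median log2 fold change was -0.0350. Stip1, or Hop, which joins Hsp70 to Hsp90 and passes clients between them, fell to 88.3% of control, going by the authors' deposited table (log2 fold change -0.18, 95% interval -0.28 to -0.08, Benjamini-Hochberg adjusted p = 0.0155). It stood at about 17316 in Npm1 siRNA cells and about 19610 in control siRNA cells, derived from the authors' deposited table. Ahsa2, related to the Hsp90 ATPase activator Ahsa1, had the highest value, a log2 fold change of 0.26 in the authors' deposited table (95% interval -0.07 to 0.58). Removing the trend with GC content and transcript length ended the calls of Bag3 (log2 fold change 0.22, adjusted p = 0.0528) and Stip1 (log2 fold change -0.15, adjusted p = 0.0628), with values close to those above, while St13 kept its call. Over all alternatives the adjusted p of Bag3 ran from 0.00914 to 1.0, that of Stip1 from 0.0125 to 1.0 and that of St13 from 1.85e-06 to 1.0, the upper ends coming from the test against a change of 1.2-fold.

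Of 16 mitochondrial chaperones and proteases, all tested, 1 fell, and the median log2 fold change was -0.05. At an unadjusted p under 0.05 there were 3, Dnajc15, Hspa9 and Spg7. Dnajc15, a J-domain protein of the inner mitochondrial membrane that works with the protein import motor, fell to 79.2% of control, going by the authors' deposited table (log2 fold change -0.34, 95% interval -0.54 to -0.13, Benjamini-Hochberg adjusted p = 0.0383). Its level was about 1480 in Npm1 siRNA cells and about 1869 in control siRNA cells, derived from the authors' deposited table. The call was lost with no filter on low means (adjusted p = 0.0671), and over all alternatives the adjusted p ran from 0.0314 to 1.0. Hspa9, the mitochondrial Hsp70 and the partner that motor acts through, was looked up after its value was seen. It had a log2 fold change of -0.14 (95% interval -0.25 to -0.02, Benjamini-Hochberg adjusted p = 0.174) in the authors' deposited table. Spg7 was at -0.28 (95% interval -0.48 to -0.08, Benjamini-Hochberg adjusted p = 0.089) and Grpel1 at 0.05 (95% interval -0.12 to 0.22), neither called. Grpel2, a nucleotide exchange factor of Hspa9, had the highest value at a log2 fold change of 0.14 in the authors' deposited table.

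Of 15 cytosolic J-domain proteins 13 were tested and none passed, with 2 at an unadjusted p under 0.05, and the median log2 fold change was -0.02. Those were Dnajb5 and Dnajc2, with opposite signs. Dnajb5 had the highest value in the authors' deposited table (log2 fold change 0.44, 95% interval 0.03 to 0.86, Benjamini-Hochberg adjusted p = 0.258). Dnajc2 was lower (log2 fold change -0.16, 95% interval -0.31 to -0.0055, Benjamini-Hochberg adjusted p = 0.283). The abundant Dnajc7 and Dnajc21 were at -0.02 and 0.04 as log2 fold changes of the authors' deposited table. Dnaja4 had the lowest value, with 22, 2 and 14 reads in Npm1 siRNA libraries, against 17, 12 and 20 in control siRNA libraries. Its groups overlap, and its log2 fold change was -0.42 in the authors' deposited table.

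Of 7 other cytosolic Hsp70 and Hsp110 genes 5 were tested and none passed, with 0 at an unadjusted p under 0.05 (median log2 fold change -0.10). Hspa4, the abundant Hsp110, was at -0.10 and Hspa14, which works at the ribosome, at -0.09 as log2 fold changes of the authors' deposited table. Hspa4l was highest at 0.53 (95% interval -0.38 to 1.44) and Hspa12a lowest at -0.50 (95% interval -1.40 to 0.40), as log2 fold changes in the authors' deposited table.

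Of 6 other heat shock factors and their regulators 4 were tested and none passed, with 0 at an unadjusted p under 0.05 (median log2 fold change -0.04). Hsbp1, a small protein that binds the trimer region of Hsf1, was at 0.11 and Hsf2, a second heat shock factor, at 0.03 as log2 fold changes of the authors' deposited table. Hsf5, a factor known from the testis, had 18, 15 and 14 reads in Npm1 siRNA libraries, against 27, 15 and 26 in control siRNA libraries. Its log2 fold change of -0.58 in the authors' deposited table was not called, and the groups overlap.

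Of 9 small heat shock proteins, which hold unfolded proteins without ATP, 5 were tested and none passed, with 0 at an unadjusted p under 0.05 (median log2 fold change -0.04). Hspb1, or Hsp25, was at 0.16 (95% interval -0.01 to 0.33) and Hspb8, the partner of Bag3, at 0.07 as log2 fold changes of the authors' deposited table. Hspb7 had 5, 9 and 8 reads in Npm1 siRNA libraries, against 16, 16 and 15 in control siRNA libraries. Those groups do not overlap, but how many genes of such low means separate in this way was not counted. The separation was therefore not read as a difference. At so few reads the log2 fold change was -1.13 in the authors' deposited table (95% interval -2.69 to 0.43, Benjamini-Hochberg adjusted p = 0.530).

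Of 9 other stress-inducible genes, all tested, none passed, with 2 at an unadjusted p under 0.05 (median log2 fold change -0.04). The ubiquitin gene Ubb was at 0.06, the autophagy receptor Sqstm1 at -0.06 and Hikeshi, which carries Hsp70 into the nucleus under heat, at -0.32 (Benjamini-Hochberg adjusted p = 0.130) as log2 fold changes in the authors' deposited table. Ier5, an early-response gene that acts on Hsf1, had the highest value at 0.67 (95% interval -0.13 to 1.48) in the authors' deposited table.

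**Figure D4:**
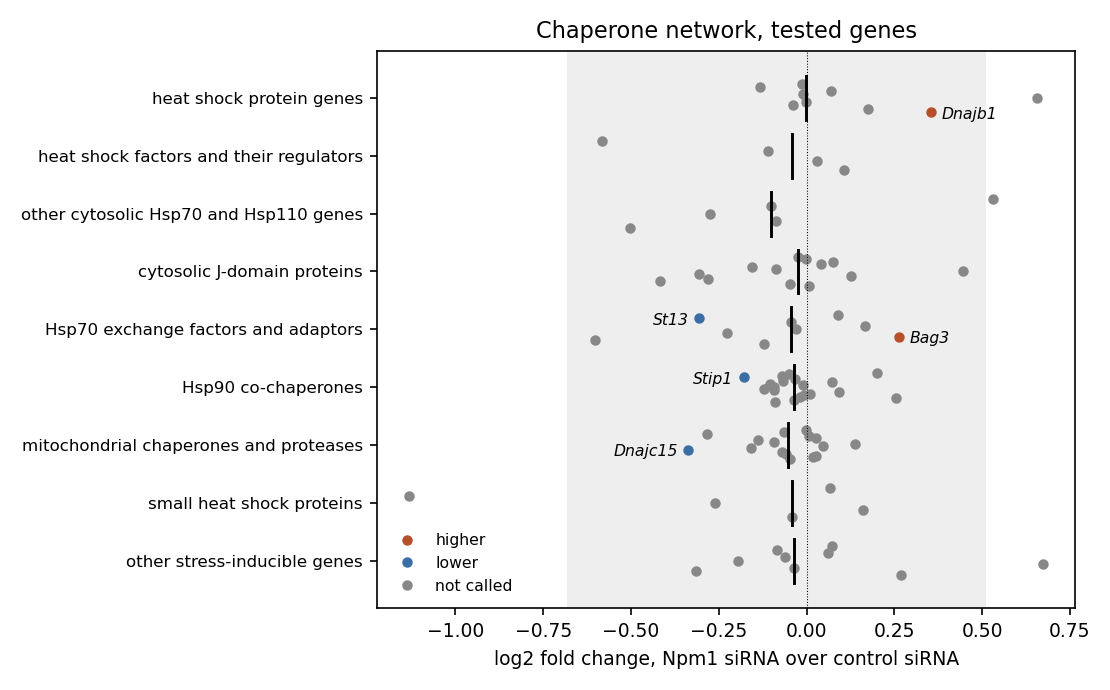
Log2 fold change (Npm1 siRNA over control siRNA) of each tested gene of the heat shock set and of the 8 further lists, with 1 point per gene, a black bar at each list's median, and a grey band from the 5th to the 95th percentile of all tested genes (-0.68 to 0.51). The coloured points are Dnajb1 and Bag3, which rose, and St13, Stip1 and Dnajc15, which fell, and all 5 lie inside the grey band. The band takes no account of each gene's precision. The median standard error was 0.154 over all tested genes and 0.081 at means of at least 1000.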

How the data were processed

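The authors used DESeq2, STAR, Trimmomatic 0.36 and FastQC with the GRCm38 (mm10) build, per the submitters' processing notes. Their counting step, strand setting and gene annotation were not given in the sources used here. Per the file headers, the deposited table holds a pooled mean (a signal value: read counts divided by a scaling factor per library and averaged), a log2 fold change and an unadjusted p-value for each gene. Of 52535 rows, 27423 had a mean of 0. The planned models across libraries could not be fitted, since the table has no values per library, so the authors' p-values were adjusted by Benjamini-Hochberg over the 14284 genes whose mean reached 10, and standard errors were implied from fold change and p. Approximate group levels assume that the pooled mean averages both groups equally.

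Depth per library is unknown beyond scaling factors between 0.923 and 1.06, read from genes with 1 read in 1 library. With these steps, a pooled mean up to 21 was resolved into whole reads per library. Each of 3118 genes with a mean from 5 to 21 gave exactly 1 solution within 2e-13, and their log2 ratios differed from the deposited ones by a median of 0.00483. The sign of the deposited fold change at each step gave the group, but which replicate a library is cannot be told. This step was chosen after the data were seen.

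Annotation came from GENCODE M21 and promoters from RefSeq (GRCm38.p6). Protein sequences were not used here. The members and gene lists were chosen with earlier results of these data known. Genes named were the members, Npm1, up to 4 called genes per list or the 2 most abundant, and each chaperone list's highest and lowest. Named outside this rule, after values were seen, were Hspa9, Spg7, Grpel1, Dnajc2, Tfcp2l1 and the fibroblast markers at 0. The same holds for the rows that share sequence or position with a named gene, and for the genes of the closing observations. Scripts were tested on simulated data and used Python 3.11.15 with numpy 2.4.6, pandas 2.3.3, scipy 1.17.1 and matplotlib 3.10.9.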

Additional observations from a re-analysis of the deposited data

How the results depend on the processing

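These alternatives were tried: no filter on low means, a mean of at least 50, fold changes recentred on the median, a test against a change of 1.2-fold, the Benjamini-Yekutieli adjustment, and a cubic trend on transcript length and GC content subtracted, for the 97.4% of tested genes with a unique annotated symbol. Of the 53 values these gave for the tested members, 49 kept their direction and side of the threshold, Dnajb1 lost its call in 2, and 2 changed sign without being called. The cause of each change was not tested. Under the test against 1.2-fold, 9 genes were higher and 12 lower in all, with 0 members called and 0 genes each among Hsp70 exchange factors, Hsp90 co-chaperones and mitochondrial chaperones. Under Benjamini-Yekutieli, 121 were higher and 109 lower, with 0 members, 1 Hsp70 exchange factor (St13), 0 Hsp90 co-chaperones and 0 mitochondrial chaperones. With the trend subtracted, 206 were higher and 283 lower, 1 Hsp70 exchange factor and 0 Hsp90 co-chaperones were called, and the log2 fold changes of Hspa8 (0.0185), Hsp90ab1 (0.0183), Hsf2 (-0.0182) and Dnajc7 (0.0020) changed sign, all uncalled. With no filter, 0 mitochondrial chaperones were called. By exon union, the range of levels per kilobase was 20164-fold. In the upstream part of the promoter windows alone, 2 members held a 3-unit element. No paired analysis was possible because the table holds no values per library, and for the same reason leaving out replicates and another normalization were not run. Among the members, low means limit Hspa1a and Hspa1b most.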

Other observations

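The endoplasmic reticulum counterparts of these chaperones, looked up after values were seen, were not called. Hspa5, the Hsp70 of that compartment, had a log2 fold change of -0.06 (95% interval -0.17 to 0.05), Hsp90b1, its Hsp90, -0.13 (95% interval -0.25 to 0.0043) and Hyou1, its Hsp110, 0.16 (95% interval 0.03 to 0.29, Benjamini-Hochberg adjusted p = 0.157) in the authors' deposited table. Hspa13, another Hsp70 there, was at 0.16 (95% interval -0.06 to 0.37) and Dnajb11, a J-domain protein there, at -0.03 in the authors' deposited table.

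Hsf2bp and Hspg2, which have similar symbols but are no chaperones, did pass and were picked after their values were seen. Hsf2bp, named for binding Hsf2 and known from meiotic recombination, fell to 69.7% of control, going by the authors' deposited table (log2 fold change -0.52, 95% interval -0.67 to -0.37, Benjamini-Hochberg adjusted p = 6.04e-09). Hspg2, the basement membrane proteoglycan perlecan, rose, going by the authors' deposited table (log2 fold change 0.28, 95% interval 0.13 to 0.44, Benjamini-Hochberg adjusted p = 0.0154). A search by symbol prefix would place both among the heat shock genes.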
